A study of Mus musculus with 9 samples.

Results

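The genes described here encode receptors and ligands of epidermal growth factor (EGF) receptor signalling and of Met, the receptor of hepatocyte growth factor (HGF). They were chosen by name, as the probe sets with a single gene symbol in the platform annotation that matched 1 of 10 symbols: the receptors Egfr, Erbb2, Erbb3 and Met and the ligands Tgfa, Areg, Ereg, Hbegf, Btc and Hgf. Of these 10, 9 were measured, each on 1 probe set, among 19938 genes in all. The measured genes were all 4 receptors and 5 of 6 ligands, and Areg was not analysed here.

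Transcripts were measured by hybridising total RNA to Affymetrix Mouse Gene 1.0 ST arrays, 1 per sample, from 5 hepatocellular carcinomas (HCC) and 4 healthy livers. The HCC came from bitransgenic AFP-Cre/Rosa26-lsl-NICD mice, in which Cre recombinase under the alpha-fetoprotein (AFP) promoter releases expression of the Notch1 intracellular domain (NICD). The control livers came from monotransgenic Rosa26-lsl-NICD mice, so the silent NICD allele was carried by both groups and Cre by the HCC group alone. All mice were of a hybrid 129 x C57BL/6 background and 6 to 12 months old. Neither sex nor the animal behind each array is stated in the labels, so a p-value speaks for the variation among these arrays, which may be partly technical. The AFP promoter is active in hepatocyte precursors of the fetal liver, so NICD is switched on in their descendants. In whole tissue fewer cells of a type and less RNA per cell cannot be told apart.

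Egfr, Erbb2 and Erbb3 are related membrane proteins that signal as pairs. Ligands such as transforming growth factor alpha (Tgfa), epiregulin (Ereg), heparin-binding EGF-like growth factor (Hbegf) and betacellulin (Btc) are made as membrane precursors and are released by proteases. Erbb2 has no known ligand of its own and Erbb3 has little kinase activity, so both work mainly as partners. In liver, Met on hepatocytes is bound by HGF, which is made chiefly by non-parenchymal cells such as stellate cells, and Egfr and Met signalling both drive hepatocyte proliferation after loss of liver tissue.

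NICD acts on DNA through the protein Rbpj, whose preferred site has the core TGGGAA. Start-site windows of 300 bases from RefSeq (GRCm38.p6), 250 before and 50 after the start, were searched for 7 of the 10 genes in 8 windows. Hbegf was left out of this search, and no window was at hand for Erbb3 and Ereg. The letters TGGGAA, on either strand, were in 3 of the 8 windows, those of Areg, Met and 1 of the 2 windows of Hgf. They were in 25.6% of all 32851 windows of that length. A match of these letters is a description and not a bound site. The 250 bases before the start are shown for Met and Hgf, whose windows hold the core, and for Egfr, the gene with the largest difference between the groups, whose window does not. All are written 5′ to 3′ on the plus strand, and capitals mark TGGGAA or its reverse complement TTCCCA.
Met, chr6:17463707-17463956: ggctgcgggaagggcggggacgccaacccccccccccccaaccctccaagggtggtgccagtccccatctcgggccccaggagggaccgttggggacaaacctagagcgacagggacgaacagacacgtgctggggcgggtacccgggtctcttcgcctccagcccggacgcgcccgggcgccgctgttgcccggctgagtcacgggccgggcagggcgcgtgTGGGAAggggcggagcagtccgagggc
Hgf, chr5:16553245-16553494: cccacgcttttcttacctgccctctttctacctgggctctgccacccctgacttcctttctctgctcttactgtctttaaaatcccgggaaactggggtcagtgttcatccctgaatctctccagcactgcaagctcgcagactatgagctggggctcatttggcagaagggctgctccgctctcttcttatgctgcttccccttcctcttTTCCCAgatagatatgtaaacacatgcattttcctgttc
Egfr, chr11:16751953-16752202: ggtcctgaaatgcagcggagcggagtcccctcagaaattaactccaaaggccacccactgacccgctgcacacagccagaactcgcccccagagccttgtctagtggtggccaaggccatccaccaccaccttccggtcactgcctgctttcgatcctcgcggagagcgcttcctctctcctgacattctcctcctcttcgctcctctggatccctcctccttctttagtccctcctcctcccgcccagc

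The values below are log2 intensities of probe sets, given as mean ± SD over 5 HCC arrays and 4 control arrays, and a log2 change is the HCC mean minus the control mean. An intensity reflects the probes as well as the RNA, so levels are compared between arrays and not between genes. Array medians lay between 91.5 and 101 linear units. Notch1, the source of the transgene, measured 7.40 ± 0.16 in HCC and 7.11 ± 0.13 in control liver (limma adjusted p = 0.160), and its probe set may lie partly outside the NICD part. Hepatocyte markers were bright on every array, with summed intensities of 38453 to 54311 linear units in HCC and 54258 to 57690 in control liver over 6 of 7 listed genes. All 6 had a negative change, none passed the test, and Tat and Cps1 lay lower in HCC without overlap, beside 3.86% of all genes. Of the 5 biliary markers measured, 3 did not overlap between the groups (Epcam, Sox9 and Cftr, all higher in HCC, beside 5.63% of all genes), and the list's summed intensity was 905 to 3557 in HCC and 444 to 482 in control liver. Only Sox9 of the 5 passed the test (log2 change 2.15, limma adjusted p = 0.0228), beside 0.858% of all genes that passed and were higher in HCC. HCC array 5 stood closest to the control livers, with 44.6% of all genes outside the control range against 52.4% to 60.6% on the other HCC arrays.

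No receptor or ligand passed the test between HCC and control liver. In limma, a linear model with moderated variances fitted to all 19938 genes, none of the 9 genes reached an adjusted p of 0.05 after Benjamini-Hochberg adjustment, and the adjusted p ran from 0.278 to 0.671. None of the 9 reached an unadjusted p of 0.05 either. Over all genes 1.02% passed the adjusted threshold and 20.4% had an unadjusted p below 0.05, beside which 0 of 9 is not a result particular to these genes. The groups overlapped for every one of the 9, against 9.48% of all genes whose groups did not overlap. The intervals leave room for sizeable changes in Egfr and Hgf and little room in Tgfa and Ereg, for which several arrays repeat a value.

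**Figure D1:**
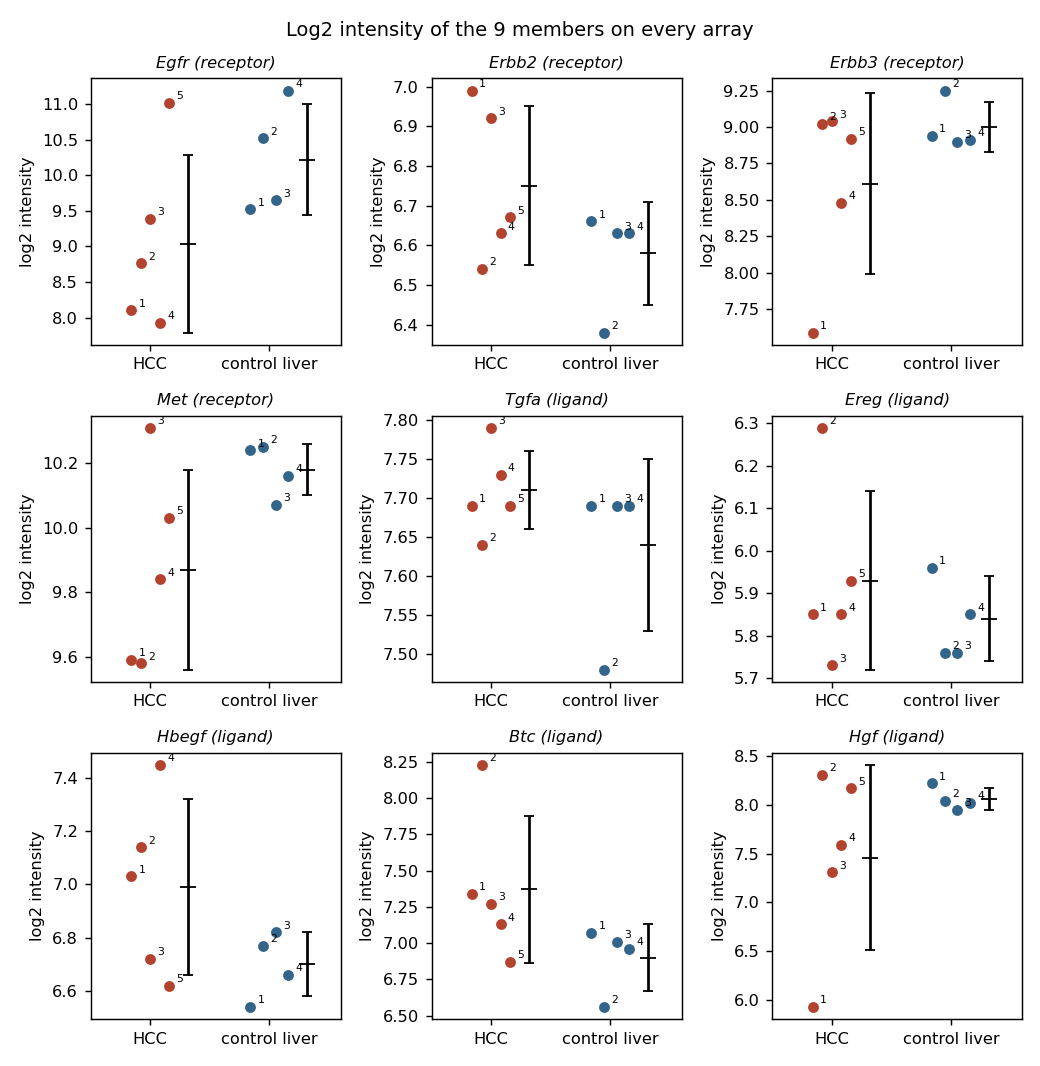
Log2 intensity (vertical axis) of the 9 genes in HCC (red, left) and control liver (blue, right). Each point is 1 array with its replicate number, and black bars give mean and SD; the groups overlap for all 9 genes, and Egfr and Hgf have the widest spread among HCC arrays.

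The receptor Egfr had the largest difference and the widest interval. It measured 8.10, 8.76, 9.39, 7.93 and 11.02 on HCC arrays 1 to 5, against 9.52, 10.52, 9.65 and 11.19 on control arrays 1 to 4. HCC arrays 1 to 4 lay below every control liver, and HCC array 5 lay within the control range. The means were 9.04 ± 1.25 in HCC and 10.22 ± 0.78 in control liver, a log2 change of -1.18 or 2.27-fold lower (SE 0.63, 95% interval -2.60 to 0.24, limma adjusted p = 0.319). An exact two-sided permutation test over the 126 splits of the arrays gave p = 0.127, where the smallest p possible is 0.00794. Without HCC array 5 the log2 change was -1.68 (limma adjusted p = 0.0642), and without control array 4, the brightest control, it was -0.86 (limma adjusted p = 0.552).

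The control liver with the most Egfr was also the only control with low Xist, the noncoding RNA made from an inactive X chromosome. The log2 intensity of Xist was 10.68 to 11.76 for HCC arrays 1 and 2 and for control arrays 1, 2 and 3. It was 4.83 to 5.10 for HCC arrays 3, 4 and 5 and for control array 4. The mean of 3 Y-linked transcripts (Eif2s3y, Kdm5d and Uty) was 7.81 and 8.40 on HCC arrays 3 and 5 and 8.53 on control array 4, and 4.32 to 4.70 on the arrays of high Xist. HCC array 4, with low Xist, had a Y-linked mean of 5.79, between these sets. The highest Egfr value of each group was on an array of low Xist, and so was the lowest of all 9 arrays, 7.93 on HCC array 4.

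The arrays were also compared within each Xist level, a split added after the data were seen. Every HCC array had less Egfr than every control liver of like Xist level. The arrays of high Xist averaged 8.43 in 2 HCC and 9.90 in 3 control livers, a difference of -1.47. Those of low Xist averaged 9.45 in 3 HCC, and the single control liver of low Xist was at 11.19, a difference of -1.74. This order, HCC below every control at both levels, was met by 9.70% of all genes and by 1 of the 9, Egfr, a share near that of all genes. The opposite order, HCC above every control at both levels, was met by 8.92% of all genes and by none of the 9. When Xist was added to the model as a covariate, the log2 change of Egfr was -1.58 (SE 0.58, 95% interval -2.90 to -0.25, limma adjusted p = 0.173). With the Y-linked mean in its place it was -1.41 (SE 0.42, limma adjusted p = 0.110). Neither passed the threshold over all genes. Since 1 control liver carries the low-Xist comparison, how far HCC and Xist level can be separated was not tested.

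**Figure D2:**
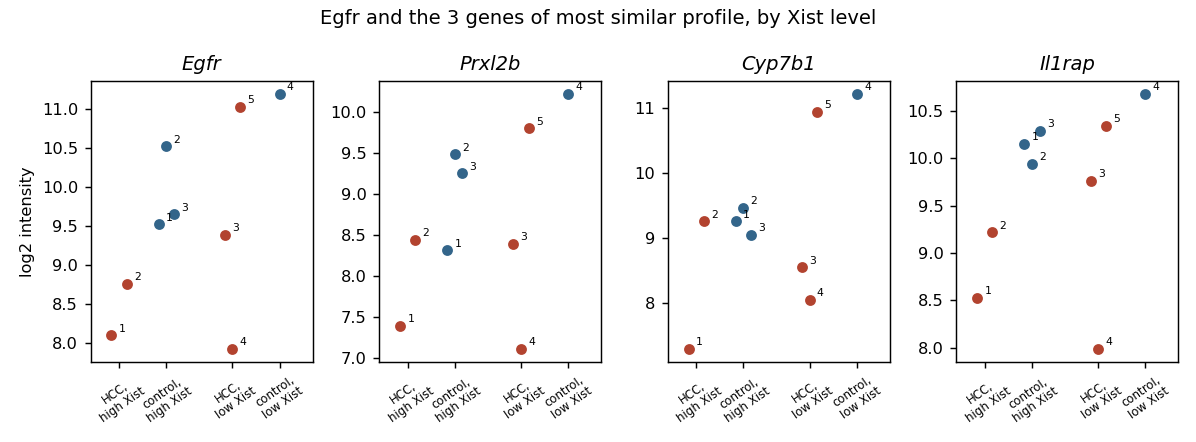
Log2 intensity (vertical axis) of Egfr and of the 3 genes nearest to it in profile, with arrays split by Xist level and numbered by replicate. For Egfr, HCC arrays (red) lie below the control livers (blue) of the same Xist level, and HCC array 5 and control array 4 are the highest in each group.

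The genes closest to Egfr over the 9 arrays were Prxl2b, Cyp7b1 and Il1rap. Likeness was the root mean square difference between profiles after each gene's control mean was subtracted, among 1516 genes with an SD of at least 0.5 times that of Egfr, and it was 0.31, 0.51 and 0.51 on the log2 scale. Cyp7b1, an oxysterol hydroxylase with male-biased expression in mouse liver, measured 7.30, 9.26, 8.55, 8.05 and 10.94 on HCC arrays 1 to 5, against 9.26, 9.47, 9.05 and 11.22 on control arrays 1 to 4. Il1rap is an accessory chain of the interleukin-1 receptor. Below the control livers of like Xist level lay 5 of 5 HCC arrays for Il1rap and 4 of 5 for both Prxl2b and Cyp7b1. All 3 genes were chosen for their likeness to Egfr on these arrays, so these counts are a description only.

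Met had the smallest unadjusted p of the 9 genes. It measured 9.59, 9.58, 10.31, 9.84 and 10.03 on HCC arrays 1 to 5, against 10.24, 10.25, 10.07 and 10.16 on control arrays 1 to 4. HCC arrays 1, 2, 4 and 5 lay below every control liver and HCC array 3 lay above every one, so the groups overlapped although no HCC value fell inside the control range. The log2 change was -0.31 (9.87 ± 0.31 in HCC and 10.18 ± 0.08 in control liver, SE 0.15, 95% interval -0.65 to 0.03, unadjusted p = 0.0674 and adjusted p = 0.278 in limma). The exact permutation p was 0.119, and with array weights, by which limma counts arrays that vary more from their group for less, the log2 change was -0.17. Adjusted for Xist, the log2 change of Met was -0.41 (95% interval -0.72 to -0.09, limma adjusted p = 0.153). The genes closest to Met in profile were Adprm, Gm15760 and Pard3, at root mean square differences of 0.10, 0.11 and 0.11 among 14339 genes.

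Erbb3 and Erbb2, the partner receptors, did not pass and stayed within or near the control range on most HCC arrays. Erbb3 measured 7.59, 9.02, 9.04, 8.48 and 8.92 on HCC arrays 1 to 5, against 8.94, 9.25, 8.90 and 8.91 on control arrays 1 to 4. HCC arrays 1 and 4 lay below the control livers, and the other 3 lay within their range. The log2 change of -0.39 (95% interval -1.03 to 0.25, limma adjusted p = 0.464) was -0.13 without HCC array 1. Erbb2 measured 6.99, 6.54, 6.92, 6.63 and 6.67 on HCC arrays 1 to 5, against 6.66, 6.38, 6.63 and 6.63 on control arrays 1 to 4. HCC arrays 1 and 3 stood above the others, HCC array 5 barely exceeded the highest control, and the log2 change was 0.18 (95% interval -0.08 to 0.43, limma adjusted p = 0.403). Without control array 2, the lowest control, it was 0.11.

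Among the 5 ligands chosen by name and measured, Hgf, the ligand of Met, was the most uneven across tumours. It measured 5.93, 8.31, 7.31, 7.59 and 8.17 on HCC arrays 1 to 5, against 8.22, 8.04, 7.95 and 8.02 on control arrays 1 to 4. HCC arrays 1, 3 and 4 lay below every control liver, HCC array 2 lay above every one and HCC array 5 lay within their range. The SD was 0.95 in HCC and 0.11 in control liver, a ratio of 8.40, and the log2 change was -0.59 (95% interval -1.55 to 0.36, limma adjusted p = 0.452, exact permutation p = 0.278). Without HCC array 1 the log2 change was -0.21 (limma adjusted p = 0.636).

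Markers of non-parenchymal cells went both ways on HCC array 1, where Hgf was lowest. The stellate cell marker Lrat, which esterifies retinol for storage, was 6.26 there, against 7.53 to 8.84 on the other HCC arrays and 8.79 to 9.44 in control liver. Dcn, the matrix proteoglycan decorin, was 9.64 on HCC array 1 and at least 10.83 on every other array. Other genes of the same list were highest on HCC array 1, among them Acta2, the smooth muscle actin of activated stellate cells, at 7.99 against 5.68 to 7.53 on the other arrays, and Reln at 8.68. The collagen genes Col1a1 (7.52) and Col1a2 (7.67) were highest there too, by narrow margins over HCC array 4 (7.48 and 7.59). Col3a1 was not, at 7.18 against 7.24 on HCC array 3, and Des was lowest on HCC array 1, at 5.70. The 7 macrophage and Kupffer cell markers averaged 1.85 log2 units below their control mean on HCC array 1 (a mean deviation of -1.85), against -0.80 to 0.91 on the other HCC arrays, and the 7 endothelial markers -1.11 against -0.47 to 0.20. Genes within both lists went both ways there. The macrophage marker Vsig4 (5.14) and the endothelial marker Clec4g (5.82) lay below every control liver. Cd68 (9.35) and Pecam1 (8.61), of the same 2 lists, lay above every control liver. The 9 lymphocyte and neutrophil markers measured averaged 0.19 above theirs on HCC array 1. The neutrophil genes S100a8 (8.36) and S100a9 (9.99) lay above every control liver there. Cd8a (6.36), Cd79a (4.34), Ms4a1 (4.87) and Nkg7 (6.14) lay below every control liver, and Ptprc, Cd3e and Cd3g lay within the control range. Over the whole stellate and fibroblast list, with 11 of 11 genes measured, the mean deviation on HCC array 1 was -0.15, and summed intensity was 3003 to 6947 in HCC and 4602 to 5684 in control liver. Summed intensity was 1316 to 8653 in HCC and 2797 to 6300 in control liver for the macrophage list, and 1486 to 3148 in HCC and 2621 to 3072 in control liver for the endothelial list. None of these 3 lists held a gene past the threshold, and their part in the Hgf values was not tested.

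Betacellulin and heparin-binding EGF-like growth factor had positive changes that did not pass. Btc measured 7.34, 8.23, 7.27, 7.13 and 6.87 on HCC arrays 1 to 5, against 7.07, 6.56, 7.01 and 6.96 on control arrays 1 to 4. HCC arrays 1 to 4 lay above every control liver and HCC array 5 within their range, and HCC array 2 was the highest. The log2 change was 0.47 or 1.38-fold (95% interval -0.10 to 1.03, limma adjusted p = 0.321, exact permutation p = 0.111), and without HCC array 2 it was 0.25. Hbegf measured 7.03, 7.14, 6.72, 7.45 and 6.62 on HCC arrays 1 to 5, against 6.54, 6.77, 6.82 and 6.66 on control arrays 1 to 4. HCC arrays 1, 2 and 4 lay above every control liver, and the log2 change was 0.29 or 1.23-fold (95% interval -0.07 to 0.66, limma adjusted p = 0.336, exact permutation p = 0.143). It was 0.18 without HCC array 4 and 0.15 with array weights.

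Tgfa and Ereg had the smallest differences of the 9 genes. Tgfa measured 7.71 ± 0.05 in HCC and 7.64 ± 0.11 in control liver, and the interval of its log2 change, -0.09 to 0.23, corresponds to 0.941-fold to 1.17-fold (limma adjusted p = 0.591). The deposited Tgfa intensity was exactly the same on 5 of the 9 arrays, so its SD rests on few distinct values. That of Ereg was the same on 3 of the 9, and the mean level of Ereg exceeded that of 26.2% of all genes. Ereg measured 5.93 ± 0.21 in HCC and 5.84 ± 0.10 in control liver, with HCC array 2 at 6.29 and the other arrays of both groups between 5.73 and 5.96. Its log2 change was 0.09 (95% interval -0.16 to 0.35, limma adjusted p = 0.671). Without HCC array 2 the Ereg difference was 0.0, and without control array 2 the log2 change of Tgfa was 0.02, against 0.07 with all arrays.

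**Figure D3:**
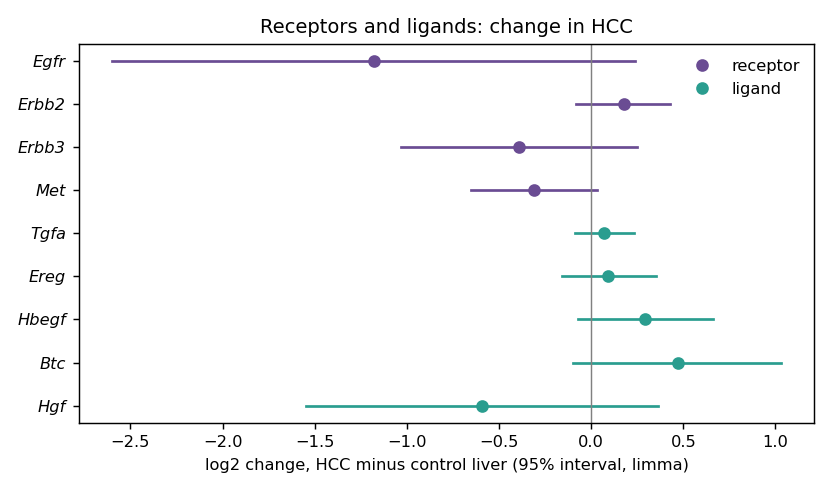
Log2 change, HCC minus control liver (horizontal axis), of 4 receptors (purple) and 5 ligands (green), with limma's 95% interval as a line. All 9 intervals include 0, from the widest for Egfr (-2.60 to 0.24) to the narrowest for Tgfa (-0.09 to 0.23).

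Set side by side, 3 of 4 receptors had a negative change and 4 of 5 ligands a positive one. Erbb2 and Hgf were the exceptions. The median log2 change was -0.35 for the receptors and 0.09 for the ligands, beside -0.03 for all genes, of which 57.5% had a negative change. No gene of either set passed, so these counts describe direction only and no difference between receptors and ligands was tested. Per array, the median deviation of the receptors from their control mean was -1.0, -0.32, 0.09, -0.43 and 0.01 on HCC arrays 1 to 5, and between -0.11 and 0.16 on the control arrays. The median deviation of the ligands was 0.05, 0.44, 0.03, 0.10 and 0.05 on HCC arrays 1 to 5, and between -0.07 and 0.13 on the control arrays. The receptor medians were below every control array on HCC arrays 1, 2 and 4, and the ligand median was above every control array on HCC array 2.

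**Figure D4:**
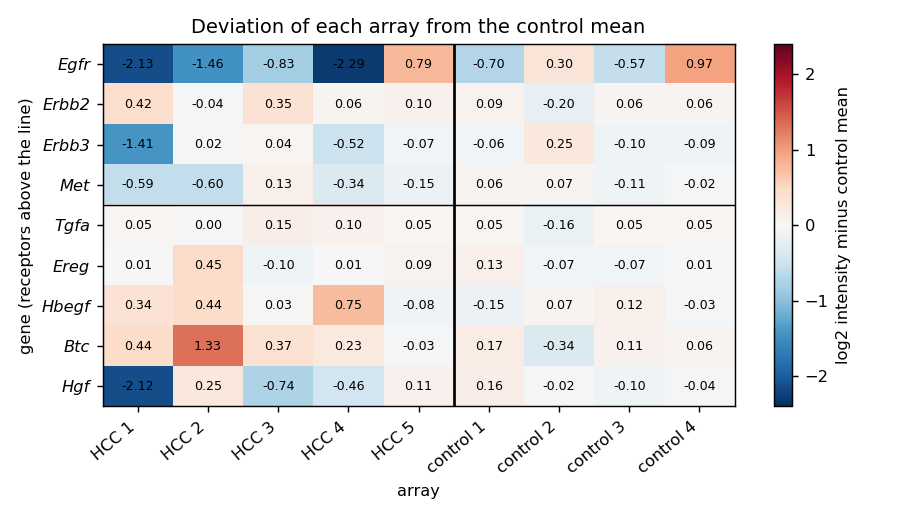
Log2 intensity minus the gene's control mean (colour and printed value) for 9 genes (rows, receptors above the line) on 5 HCC and 4 control arrays (columns). HCC array 1 is low in Egfr (-2.13), Erbb3 (-1.41) and Hgf (-2.12), HCC array 2 is high in Btc (1.33), and HCC array 5 lies close to the control livers.

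Most of the 9 genes had a wider spread among the HCC arrays than among the control arrays. The SD was larger in HCC for 8 of the 9 genes, Tgfa being the exception, and the median ratio of SDs was 2.23. Over all genes the SD was larger in HCC for 67.9% and the median ratio was 1.46; the difference in spread was not tested. Of the 45 values of these genes on HCC arrays, 29 lay outside the range of the control livers (64.4%, against 55.1% over all genes), and HCC array 5 supplied 2 of them against 6 or 7 on each other HCC array.

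Of the wider pathway, 74 of 79 listed genes were measured, of which 1 was higher and none lower past the threshold, beside 0.858% and 0.160% of all genes. The gene that passed was Ier2. Among those 74, 45 had a positive and 29 a negative change, with a median log2 change of 0.07. The groups did not overlap for 6 genes higher and 4 lower in HCC, beside 5.63% and 3.86% of all genes. Unless said otherwise, the genes named below beside those with the smallest adjusted p of each list were picked after their values were seen.

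Among transcripts that the mitogen-activated protein kinase (MAPK) cascade induces, Ier2, an immediate early gene, was higher in HCC. It measured 7.52, 7.57, 7.60, 7.48 and 7.48 on HCC arrays 1 to 5, against 6.94, 7.08, 7.31 and 6.93 on control arrays 1 to 4. All HCC arrays lay above all control livers, and the log2 change was 0.47 or 1.38-fold (SE 0.09, limma adjusted p = 0.0497). The call was at the threshold: it was lost in 16 of 20 alternative settings, among them the omission of any 1 of 8 arrays, with adjusted p from 0.0309 (without HCC array 5) to 0.146 (without control array 1). Of the 15 genes of this list, 14 did not pass, 9 of the 15 had a positive change and the median was 0.23. Ccnd1, which encodes cyclin D1, measured 10.76 ± 0.72 in HCC and 9.24 ± 0.47 in control liver (limma adjusted p = 0.0849), and Egr2, a zinc finger transcription factor, measured 7.77 ± 0.46 in HCC and 6.79 ± 0.02 in control liver (limma adjusted p = 0.0640). Neither of these overlapped between the groups. Fos, another immediate early gene, had a log2 change of -0.10 (limma adjusted p = 0.485), and Dusp6 of the feedback list, a phosphatase induced by MAPK, of 0.10 (limma adjusted p = 0.501).

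Of 12 genes that release ligands or activate HGF, none passed, 10 had a positive change and the median was 0.17. Spint2, an inhibitor of the serine proteases that activate HGF, had the smallest adjusted p. It measured 9.98, 9.08, 9.68, 9.60 and 9.21 on HCC arrays 1 to 5, against 8.21, 8.53, 8.55 and 8.84 on control arrays 1 to 4, without overlap (log2 change 0.98 or 1.97-fold, 95% interval 0.54 to 1.42, limma adjusted p = 0.0556). Hgfac, the secreted HGF activator protease, measured 7.04, 8.21, 7.46, 6.87 and 8.24 on HCC arrays 1 to 5, against 8.75, 8.95, 8.60 and 8.46 on control arrays 1 to 4. It was below every control liver on all 5 HCC arrays (log2 change -1.13, 95% interval -1.80 to -0.45, limma adjusted p = 0.102). The related inhibitor Spint1 had a log2 change of 0.45 (adjusted p = 0.193) and hepsin, Hpn, another HGF-activating protease, of -0.07 (adjusted p = 0.679), in limma. Adam10, a protease that sheds EGF family precursors and also cleaves Notch receptors, had a log2 change of 0.66 (limma adjusted p = 0.134), and Adam17, the main sheddase of Tgfa, of 0.12 (limma adjusted p = 0.760).

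Of 19 feedback inhibitors none passed, 14 had a positive change and the median was 0.13. Socs4, a suppressor of cytokine signalling that promotes Egfr turnover, had the smallest adjusted p, with 9.26 ± 0.14 in HCC and 8.74 ± 0.21 in control liver (log2 change 0.53, limma adjusted p = 0.0645). Errfi1, which binds and blocks the Egfr kinase, measured 9.71, 11.60, 11.31, 11.16 and 12.05 on HCC arrays 1 to 5, against 12.59, 12.26, 12.28 and 12.09 on control arrays 1 to 4. All HCC arrays lay below all control livers, HCC array 5 by a narrow margin, and the log2 change was -1.14 (95% interval -2.04 to -0.24, limma adjusted p = 0.168). Spry4, an inhibitor of the Ras-MAPK cascade, was also lower without overlap, at 6.44 ± 0.12 in HCC and 6.92 ± 0.21 in control liver (limma adjusted p = 0.0695).

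No relay inside the cell passed. Of 24 adaptors and kinases 19 were measured, none passed, 10 had a positive and 9 a negative change, and the median log2 change was 0.00183. Pik3cb, a catalytic subunit of phosphoinositide 3-kinase, had the smallest adjusted p, with 8.14 ± 0.23 in HCC and 8.80 ± 0.19 in control liver and no overlap (log2 change -0.66, limma adjusted p = 0.0584). Of the 9 other receptors and ligands of these families, none passed and 7 had a negative change. The smallest adjusted p there was that of Mst1, the macrophage-stimulating protein related to HGF, with 8.83 ± 0.15 in HCC and 9.12 ± 0.16 in control liver (log2 change -0.29, limma adjusted p = 0.172). Its receptor Mst1r had a log2 change of -0.07, and Egf itself of -0.12. The ligand Nrg4 was more uneven among tumours than Hgf, with an SD of 2.06 in HCC and 0.55 in control liver. It was at 5.95 on HCC array 3, and its log2 change was -0.42 (limma adjusted p = 0.827).

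**Figure D5:**
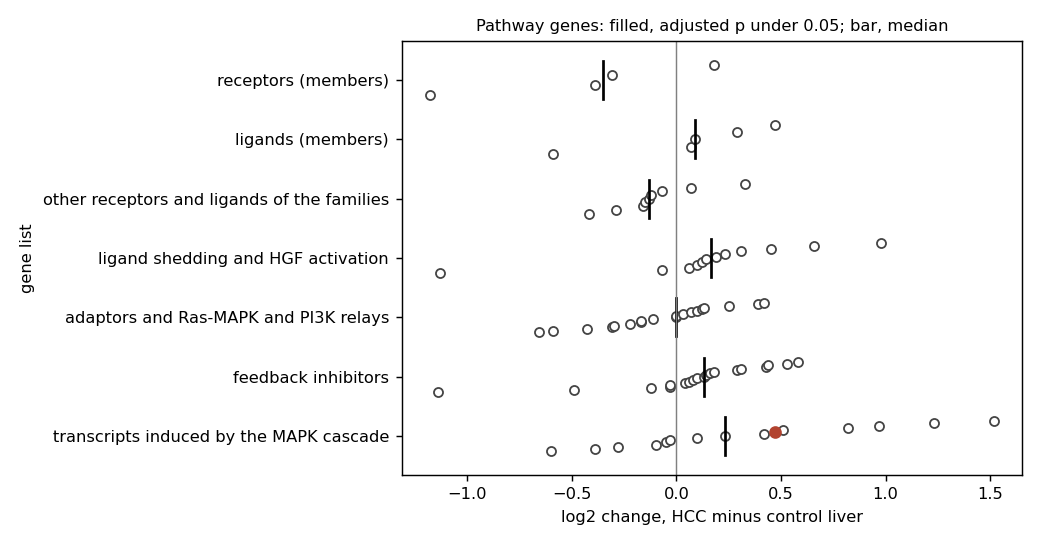
Log2 change, HCC minus control liver (horizontal axis), of each measured gene in 7 lists (rows); vertical bars are list medians. Ier2 (filled) is the single gene past an adjusted p of 0.05, and the medians run from -0.35 for the receptors to 0.23 for transcripts induced by MAPK.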

How the data were processed

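The deposited table held linear probe set intensity values that the authors had computed by RMA (background correction, quantile normalisation and probe summary), as the submitters' processing notes state. GenePattern and R were used, per the labels, with no version stated there. The range of 3.91 to 21468 shows a linear scale, so values were transformed to log2, with no pseudocount. Scanner files, scan dates and detection calls were not used here, so a low value does not show absence, and 9 arrays limit the precision.

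Of 35512 probe sets, 21789 had 1 symbol in the platform annotation, 1621 several and 12102 none; 21698 of the first matched a RefSeq gene table by Entrez identifier. Where a gene had several (999 genes), the brightest was kept, which left 19938 genes. HCC was compared with control liver in limma 3.58.1 (R 4.3.3), two-sided, with the group as the only term and Benjamini-Hochberg adjustment over all genes. Exact permutation tests used all 126 splits of the arrays. On simulated data with 19938 genes of this comparison, the fit recovered 81% of log2 changes of 1 and 97% of changes of 2, with 14 false calls. Each share was taken over 100 changed genes and is not a share for any single gene. Recovery at the spread of Egfr (SE 0.63) or Hgf (SE 0.42) was not tested.

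The genes, lists and tests were chosen with earlier results of these data known. The genes named were all members, every gene of a pathway list past the threshold or else that with the smallest adjusted p, and the 3 genes nearest in profile to Egfr and to Met; others were added as examples. Alternatives were a filter on dim genes, repeated quantile normalisation, median centring, a pseudocount of 16, trend and robust eBayes, array weights, other handling of probe sets, the replicate number as a block, Xist or Y-linked covariates and omission of each array; values within Xist levels were added after seeing the data. Same-numbered arrays were not paired (correlations of deviations -0.083 to 0.324). Python 3.11.15, pandas 2.3.3, numpy 2.4.6 and matplotlib 3.10.9 were used.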

Additional observations from a re-analysis of the deposited data

Results flagged for a closer look

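On control array 2 the log2 intensities of 3 genes stood apart from the other control livers. Erbb2 was 6.38 there, the lowest of the 4, with a gap to the nearest control of 0.891 of the group's range. Control arrays 3 and 4 held the same Erbb2 value, 6.63. Erbb3 was 9.25, the highest, with a gap of 0.883 of the range. Tgfa was 7.48, the lowest, while the other 3 control livers held the same value, so the gap is the whole range. These were 3 of 28 groups of 4 or 5 arrays examined, and chance alone flags about 5% of groups. All 3 flags came from control array 2, so they need not be independent.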

How the results depend on the processing

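None of 178 values of the 9 genes under 20 alternative settings passed the threshold or turned its direction, but the Ereg difference was 0.0 without HCC array 2. Some settings could not move these log2 changes: the filter on dim genes, trend and robust eBayes, and other handling of probe sets. Each of the 9 genes has 1 probe set. The lowest limma adjusted p was 0.0642, for Egfr without HCC array 5. Within Xist levels, a comparison added after seeing the data, Ereg was at -0.01 among arrays of low Xist and the other differences kept their direction. Erbb2 and Ereg had no value under the filter on dim genes, which removed them, and so the medians of receptors and of ligands had none there. Those medians kept their sign elsewhere, at -0.46 to -0.19 and 0.07 to 0.14 when single arrays were left out. With the replicate number as a block the log2 change of Egfr was -1.68 (limma adjusted p = 0.130) and no receptor or ligand passed. Same-numbered arrays were not paired. Replicate number 5 occurred only in HCC, so the block set HCC array 5 aside and its log2 changes equal those without HCC array 5. Over all genes, 171 were higher and 32 lower as reported. The filter gave 285 and 93, a pseudocount of 16 gave 87 and 12, array weights 503 and 246, the replicate block 259 and 220, the Y-linked covariate 321 and 124, and repeated quantile normalisation 57 lower. Leaving out single arrays gave 10 to 631 higher and 0 to 556 lower, most of both without HCC array 5; the cause of these shifts was not tested. Among pathway genes, Ier2 lost its call in 16 of 20 settings, while Spint2 passed in 3 and Pik3cb and Socs4 in 4 each. Without HCC array 5, 4 transcripts induced by MAPK were higher and 2 relays lower. Under the filter and with array weights 2 such transcripts were higher. Of the genes that release ligands or activate HGF, 1 was lower with array weights, with the replicate block and without HCC array 5, and 1 feedback inhibitor was lower with array weights. Signal over background was not available per probe set.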
